A study of Mus musculus with 6 samples.

Results

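The genes described here encode 9 cytokines that T cells make to help or to restrain other cells: Il4, Il21 and Il2 (helper and growth cytokines), Il10, Tgfb1 and Ebi3 (suppressive cytokines or their subunits) and Tnf, Lta and Ltb (the tumour necrosis factor and lymphotoxin family). They were chosen by name, with earlier results of these data known, out of 18193 genes with a probe set of their own on the array. Their 11 probe sets were all used, with no filter on dim ones. A further probe set was listed with both Ntan1 and Il2; it measured 10.64 to 10.80 (log2) on the 6 arrays and was not counted for either gene.

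The cells were sorted regulatory T cells (Treg cells) of C57BL/6 mice, profiled on 6 Affymetrix arrays in 4 groups. Treg cells are the CD4 T cells that hold immune responses in check, and Foxo1 is a forkhead transcription factor that Akt keeps out of the nucleus. The WT group (wild type) had 2 arrays, the Foxo1KO group (Foxo1 knockout) 2 arrays, the Foxo1AAA group (mice carrying a constitutively active Foxo1, with no knockout on the label) 1 array and the Foxo1KO/Foxo1AAA group (the knockout with that active form) 1 array. The design asks which transcripts differ without Foxo1 and whether they return when active Foxo1 is added to the knockout. The sources used here do not give the mice's ages, the part of Foxo1 that was deleted, a Cre driver, the cells that express the active form, or how many mice went onto each array.

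Treg cells restrain other cells in part through secreted cytokines. IL-10 and TGF-beta damp macrophages, dendritic cells and effector T cells, and Ebi3 pairs with the Il12a product p35 to form IL-35 or with the Il27 product to form IL-27. Treg cells as a rule make little IL-2, a growth factor they take up from neighbours through their high-affinity receptor. IL-4 drives B cell class switching and Th2 differentiation, IL-21 is the product of follicular helper T cells that supports germinal centres, and TNF, lymphotoxin alpha and lymphotoxin beta act in inflammation and in the building of lymphoid tissue. In T cells the promoters of Il2, Il4 and Il21 respond to the calcium-driven factor NFAT, whose core site is GGAAAA.

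The 250 bases before the annotated start of 8 of the 9 genes were read from RefSeq (build GRCm38.p6). Il10 had no entry there. Each is given 5′ to 3′ on the gene's own strand. Capitals mark matches of GGAAAA (NFAT core) or GTAAACA (forkhead core) on either strand. The first 3 are shown because Il4, Il2 and 1 of the 2 probe sets of Il21 were higher with Foxo1AAA in both backgrounds. Il10 was also higher in both, but its window could not be read. That of Ltb is shown because it alone held the forkhead letters. The windows are chr11:53618666-53618915 (minus strand) for Il4, where RefSeq lists 2 starts and the outer is used, chr3:37125955-37126204 (minus) for Il2, chr3:37232637-37232886 (minus) for Il21 and chr17:35194257-35194506 (plus) for Ltb.
Il4: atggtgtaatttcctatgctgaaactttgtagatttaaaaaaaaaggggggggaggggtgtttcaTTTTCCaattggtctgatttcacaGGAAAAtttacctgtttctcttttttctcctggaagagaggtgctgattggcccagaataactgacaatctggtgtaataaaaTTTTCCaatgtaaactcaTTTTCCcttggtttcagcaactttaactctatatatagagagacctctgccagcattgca
Il2: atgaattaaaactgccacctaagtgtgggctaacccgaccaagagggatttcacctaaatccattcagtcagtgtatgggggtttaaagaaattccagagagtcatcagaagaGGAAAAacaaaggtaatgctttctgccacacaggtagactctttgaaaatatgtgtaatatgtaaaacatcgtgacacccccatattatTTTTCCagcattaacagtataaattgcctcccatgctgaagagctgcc
Il21: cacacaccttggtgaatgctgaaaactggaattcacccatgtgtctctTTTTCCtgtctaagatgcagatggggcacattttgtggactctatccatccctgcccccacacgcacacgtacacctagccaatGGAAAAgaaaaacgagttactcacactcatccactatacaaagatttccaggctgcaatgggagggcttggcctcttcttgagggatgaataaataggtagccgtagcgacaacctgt
Ltb: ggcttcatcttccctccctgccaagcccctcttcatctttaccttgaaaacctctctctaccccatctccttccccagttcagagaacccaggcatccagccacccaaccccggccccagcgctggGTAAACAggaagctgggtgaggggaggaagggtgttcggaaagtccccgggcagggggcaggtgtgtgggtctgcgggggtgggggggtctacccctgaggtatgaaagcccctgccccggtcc

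The NFAT core was found 4 times before Il4, 2 times before Il2, 2 times before Il21 and 2 times before Tnf. So 4 of 8 members held it in at least 1 of their 9 windows. The other Il4 start (chr11:53617339-53617588) held 0 matches. The reference share counts single windows, and was 20.4% of the 32851 mouse promoter windows of that length. Tnf, whose window is not printed, was not called higher with Foxo1AAA in either background. The forkhead core was found before 1 of 8 members, at 124 bases before the start of Ltb, against 3.17% of all windows. The AP-1 core TGANTCA was found before 0 of 8 members and in 6.75% of all windows. No motif overlapped another, and a match describes letters only. Several members are neighbours: on chromosome 17 Ltb, Tnf and Lta lie in a row with 3061 and 1157 bases between them, and on chromosome 3 Il2 and Il21 are 96804 bases apart with 0 protein-coding gene starts between them.

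Values are the authors' deposited log2 values after RMA, so a difference of 1 is a doubling. They carry no detection calls. A background level was therefore taken from 79 probe sets of olfactory, vomeronasal and trace amine receptors (71 genes that T cells are not known to use): the 95th percentile of their means was 6.36. A probe set whose group mean was at or below 6.36 is called near background in that group. Under this rule 7 of the 11 member probe sets lay above background in all 4 groups: those of Il10, Tnf, Lta, Ltb and Ebi3 and both of Tgfb1. The probe set of Il4 lay near background in WT, that of Il2 in WT and Foxo1KO, and the main one of Il21 in WT, Foxo1KO and Foxo1AAA. The second probe set of Il21 lay near background in all groups. At the 99th percentile of the same receptors (7.54) Il21, Il2 and 1 probe set of Tgfb1 would be near background in all groups, and Il4 in all but Foxo1KO/Foxo1AAA. A fold against a group near background is given as a lower bound, the mean of the brighter group over 6.36. Levels of different probe sets are not comparable with each other.

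Replicate arrays correlated at r of at least 0.996 over all probe sets. Foxo1 itself measured 11.03 and 11.35 in WT, 10.87 and 10.65 in Foxo1KO, 10.71 in Foxo1AAA and 9.66 in Foxo1KO/Foxo1AAA. Its difference in Foxo1KO was -0.43 (adjusted p = 0.069). Where its probes lie relative to the deleted part was not given. The single Foxp3 probe set lay near background (5.10 to 5.58), while Cd4, Cd3e and Ctla4 lay at 9.28 or higher on all 6 arrays. Xist, made by female cells, measured 12.03 to 13.43 on the WT and Foxo1KO arrays but 6.04 and 6.27 on the 2 arrays with Foxo1AAA. The Y-linked gene Eif2s3y measured 3.91 and 4.05 on both replicate 1 arrays and 9.91 to 10.59 on the other 4, and Kdm5d and Uty differed in the same way. Both replicate 2 arrays of WT and Foxo1KO thus carried Xist and Y-linked signal together, and neither group's 2 arrays were repeats of 1 RNA. Whether they stand for 1 mouse or several is not given, so n = 2 counts arrays. The sex of the mice and the presence of Foxo1AAA therefore cannot be told apart in the comparisons that set a Foxo1AAA array against WT or Foxo1KO.

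Markers of other cells also moved with Foxo1AAA. The summed linear signal of 8 macrophage and monocyte markers (Lyz2, Csf1r, Adgre1, Cd14, Itgam, Cd68, Fcgr3, Mpeg1) was 1083 and 1471 in WT, 1889 and 1314 in Foxo1KO, 10114 in Foxo1AAA and 12322 in Foxo1KO/Foxo1AAA. All 8 were higher in Foxo1AAA than in WT and 7 of 8 in Foxo1KO/Foxo1AAA than in Foxo1KO. Fewer, 2 of 8 (Lyz2, Cd68), were higher in Foxo1KO than in WT. That Cd68 call was lost without WT replicate 1 or without either Foxo1KO replicate. The WT mean of Cd68 (5.99) was below the background level. The sum of 7 dendritic cell markers was 893 and 1101 in WT, 2973 and 1449 in Foxo1KO, 7111 in Foxo1AAA and 7938 in Foxo1KO/Foxo1AAA. H2-Aa was the brightest gene of this sum, at 12.28 in Foxo1AAA and 12.45 in Foxo1KO/Foxo1AAA. In Foxo1AAA against WT 5 of the 7 were higher and Zbtb46 was lower (-0.88). In Foxo1KO/Foxo1AAA against Foxo1KO 5 were higher, while Zbtb46 (-0.77) and Xcr1 (-0.37, near background in all groups) were lower. The sum of 7 B cell markers was 6256 and 7146 in WT, 5618 and 4046 in Foxo1KO, 13685 in Foxo1AAA and 11861 in Foxo1KO/Foxo1AAA. Ighm was by far the brightest of them, at 12.42 and 12.61 in WT and 13.49 in Foxo1AAA. In Foxo1AAA against WT 5 of the 7 were higher, and in Foxo1KO/Foxo1AAA against Foxo1KO 3 of the 7. Pax5 and Blk were called in neither. Over all probe sets 10.4% were called higher in the former comparison and 14.4% in the latter. Macrophages and dendritic cells are themselves known sources of Il10, Tnf, Tgfb1 and Ebi3 transcripts. In a bulk sample more cells of a type and more RNA per cell cannot be told apart.

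**Figure D1:**
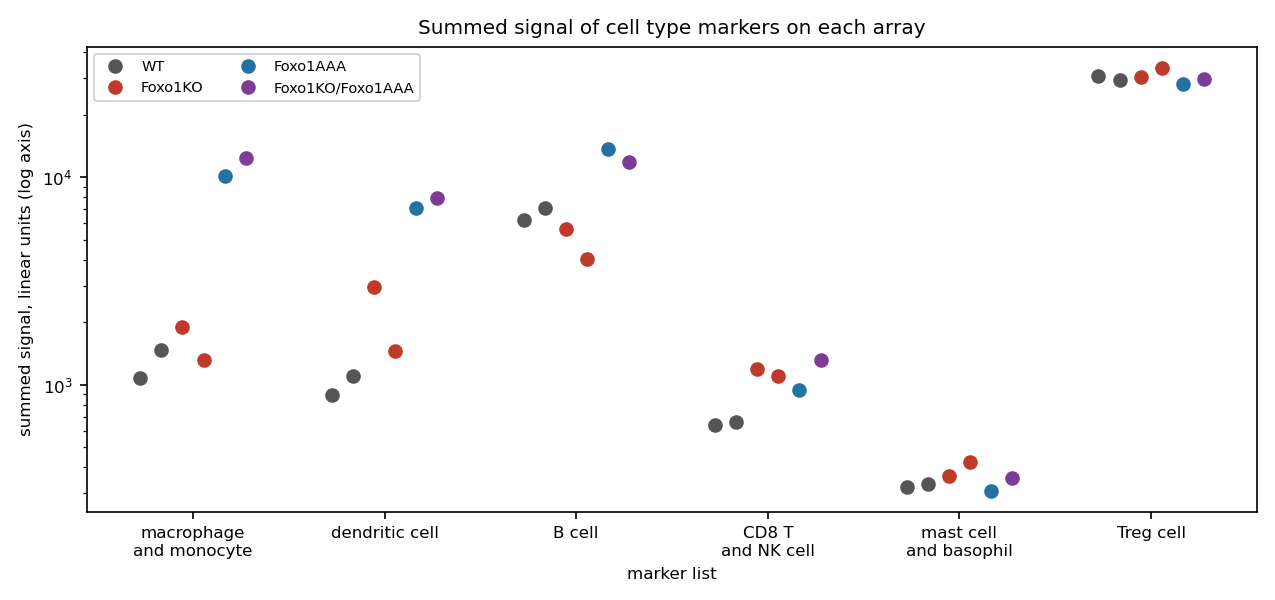
Summed linear signal of 6 marker lists on each of the 6 arrays (vertical log axis; 1 point per array, coloured by group). The macrophage and monocyte sum lay between 1083 and 1889 on the WT and Foxo1KO arrays and at 10114 and 12322 on the arrays with Foxo1AAA, while the mast cell and basophil sum lay between 309 and 423 on all 6.

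Comparing Foxo1KO with WT, which asks what differs when Foxo1 is lost, Il4, Il10, Il21 and Ebi3 rose and no member fell. These were 4 of the 11 probe sets, against 13.8% of all 45037 probe sets called (5.42% higher and 8.39% lower). The median difference was 0.16 over the members and 0.01 over all probe sets. Markers of other cells moved beside these rises. Over all genes, with the brightest probe set of each, 7.38% were called higher and 6.78% lower in Foxo1KO. Of 7 dendritic cell markers 1 rose, H2-Aa of MHC class II, which measured 8.40 and 8.90 in WT and 10.89 and 9.63 in Foxo1KO (difference 1.61, adjusted p = 0.014), while Xcr1 lay near background in all groups. The H2-Aa call was lost with a robust variance prior (limma adjusted p = 0.16). Foxo1KO replicate 1 was the higher array of its pair also for the B cell marker Ms4a1 (8.32 against 6.25). Of 7 B cell markers Cd22 rose by 0.69 (limma adjusted p = 0.0033) and Ighm fell by 0.67 (limma adjusted p = 0.023). The Ighm call was lost without WT replicate 2 or Foxo1KO replicate 2. Of 8 Treg cell markers 2 fell, Gpr83 by 1.20 (difference -1.20, adjusted p = 0.00015) and Cd4 by 0.37 (difference -0.37, adjusted p = 0.036, lost with any 1 array left out). The sum of 6 CD8 T and NK cell markers was 640 and 662 in WT and 1197 and 1106 in Foxo1KO, 3 of 6 (Klrd1, Klrk1, Eomes) rose, and the defining NK receptor Ncr1 lay near background in all groups. The part of these markers in the cytokine differences was not tested. Without Foxo1KO replicate 1 Il4, Il10 and Ebi3 remained called, at 1.25, 1.15 and 1.04.

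All tests below are from 1 limma fit over all 6 arrays and every probe set, two-sided, with Benjamini-Hochberg adjustment and a call at an adjusted p under 0.05. Groups with a single array borrowed the spread of the WT and Foxo1KO pairs, and the comparisons share arrays: WT is used in 3 of them and Foxo1KO in 2.

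Il4 (chromosome 11, 53612460 to 53618665) measured 5.64 and 5.36 in WT, 7.13 and 6.75 in Foxo1KO, 7.07 in Foxo1AAA and 7.63 in Foxo1KO/Foxo1AAA. The WT arrays were low, and the other 4 all lay above them with no overlap. In Foxo1KO it was 6.94 ± 0.26 against 5.50 ± 0.20 in WT (SD, n = 2 each), a log2 difference of 1.44 (SE 0.15, adjusted p = 0.00033), at least 1.49-fold since WT lay near background. The difference stayed between 1.25 and 1.63 and was called under all 11 alternatives. Of 7 measured mast cell and basophil markers, sources of IL-4 outside the T lineage, 5 (Mcpt8, Cpa3, Fcer1a, Ms4a2, Cd200r3) lay near background in all groups. Kit, which other cells also express, rose by 0.76 in Foxo1KO (limma adjusted p = 0.010), a call lost without Foxo1KO replicate 2. Il13 and Il5, the Th2 cytokines beside Il4 on chromosome 11, also lay near background in all groups (5.66 to 6.17 and 4.25 to 4.64) and differed by 0.26 and 0.05 between Foxo1KO and WT (adjusted p = 0.28 and 0.87).

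Il10 (chromosome 1, 131019845 to 131024970) measured 7.87 and 7.54 in WT, 8.54 and 8.85 in Foxo1KO, 8.79 in Foxo1AAA and 9.49 in Foxo1KO/Foxo1AAA. It was above background on every array, lower on both WT arrays than on the other 4 and highest on the Foxo1KO/Foxo1AAA array. In Foxo1KO it rose 1.99-fold from 7.70 ± 0.23 to 8.70 ± 0.22 (SD, n = 2 each), a log2 difference of 0.99 (SE 0.15, adjusted p = 0.0023). This was called under all 11 alternatives.

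Ebi3 (chromosome 17, 55952623 to 55957022), the beta subunit of IL-35 and IL-27, measured 9.41 and 9.15 in WT, 10.30 and 10.31 in Foxo1KO, 9.76 in Foxo1AAA and 10.08 in Foxo1KO/Foxo1AAA. Its order was therefore WT, Foxo1AAA, Foxo1KO/Foxo1AAA and Foxo1KO, unlike that of Il4 and Il10, which peaked in Foxo1KO/Foxo1AAA. In Foxo1KO it rose 2.04-fold from 9.28 ± 0.18 to 10.30 ± 0.01 (SD, n = 2 each), a log2 difference of 1.03 (SE 0.11, adjusted p = 0.00051). Of its possible partners, Il27 was not measured and Il12a (4.70 to 5.66) lay near background in all groups. Il12b and Il23a of the same family also lay near background in all groups. None of the measured genes was called between Foxo1KO and WT.

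Il21 (chromosome 3, 37222759 to 37232636) had 2 probe sets that disagreed. The first (1450334_at) measured 4.78 and 5.15 in WT, 5.90 and 5.41 in Foxo1KO, 6.08 in Foxo1AAA and 6.97 in Foxo1KO/Foxo1AAA, so only the last lay above background. Its difference in Foxo1KO was 0.69 (4.96 ± 0.26 to 5.66 ± 0.35, SD, n = 2 each; SE 0.18, adjusted p = 0.034), between groups that both lay near background, so no fold is given. This call was lost without Foxo1KO replicate 1 (0.44, adjusted p = 0.22), without WT replicate 1 (0.51, adjusted p = 0.15) and with replicate number as a block (adjusted p = 0.056). The second (1447288_at) measured 5.20 and 5.29 in WT, 5.35 and 5.41 in Foxo1KO, 4.74 in Foxo1AAA and 4.69 in Foxo1KO/Foxo1AAA. It differed by 0.13 in Foxo1KO (adjusted p = 0.49), and on the arrays with Foxo1AAA it moved opposite to the first. Markers of follicular helper T cells, the cells best known for IL-21, summed to 13672 to 15792 over the 6 arrays. Of these 7, 2 (Sh2d1a, Tox) were lower in Foxo1KO, against 6.78% of all genes.

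Il2 (chromosome 3, 37120713 to 37125954) measured 5.46 and 5.28 in WT, 5.55 and 4.99 in Foxo1KO, 6.41 in Foxo1AAA and 7.47 in Foxo1KO/Foxo1AAA. The WT and Foxo1KO arrays overlapped and lay near background, Foxo1AAA lay 0.05 above the background level, and Foxo1KO/Foxo1AAA stood apart. The difference between Foxo1KO and WT was -0.11 (95% interval -0.50 to 0.28, adjusted p = 0.78). Since both groups lay near background, the value does not bound what Il2 did there.

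Tgfb1 (chromosome 7, 25687002 to 25705077) had 2 probe sets above background. One (1420653_at) measured 7.60 and 7.48 in WT, 7.71 and 7.79 in Foxo1KO, 7.44 in Foxo1AAA and 7.65 in Foxo1KO/Foxo1AAA. The other (1445360_at) measured 7.17 and 7.12 in WT, 7.32 and 7.11 in Foxo1KO, 7.09 in Foxo1AAA and 6.73 in Foxo1KO/Foxo1AAA. They spanned 0.35 and 0.59 log2 units over all 6 arrays. In Foxo1KO they differed from WT by 0.21 (95% interval -0.03 to 0.44, adjusted p = 0.26) and 0.07 (-0.18 to 0.32, adjusted p = 0.78), and neither was called.

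Tnf (chromosome 17, 35199367 to 35202007) measured 8.66 and 8.28 in WT, 8.59 and 8.68 in Foxo1KO, 8.14 in Foxo1AAA and 8.11 in Foxo1KO/Foxo1AAA. WT and Foxo1KO overlapped (difference 0.16, 95% interval -0.14 to 0.47, adjusted p = 0.53), and both arrays with Foxo1AAA lay below them. Lta (chromosome 17, 35203165 to 35205578) measured 9.47 and 9.42 in WT, 8.86 and 9.20 in Foxo1KO, 8.90 in Foxo1AAA and 8.82 in Foxo1KO/Foxo1AAA, with WT above the other 4. Its Foxo1KO difference of -0.41 (95% interval -0.70 to -0.12) had an adjusted p of 0.067, and it was called under 4 of 11 alternatives (adjusted p 0.037 to 0.050). Ltb (chromosome 17, 35194507 to 35196305) measured 13.44 and 13.39 in WT, 13.20 and 13.22 in Foxo1KO, 13.54 in Foxo1AAA and 13.56 in Foxo1KO/Foxo1AAA, a span of 0.36. It lay lowest in Foxo1KO without overlap, but the difference of -0.21 (95% interval -0.43 to 0.02) was not called (adjusted p = 0.23), except with an intensity trend in the variance prior (0.029). Values this bright may be compressed.

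**Figure D2:**
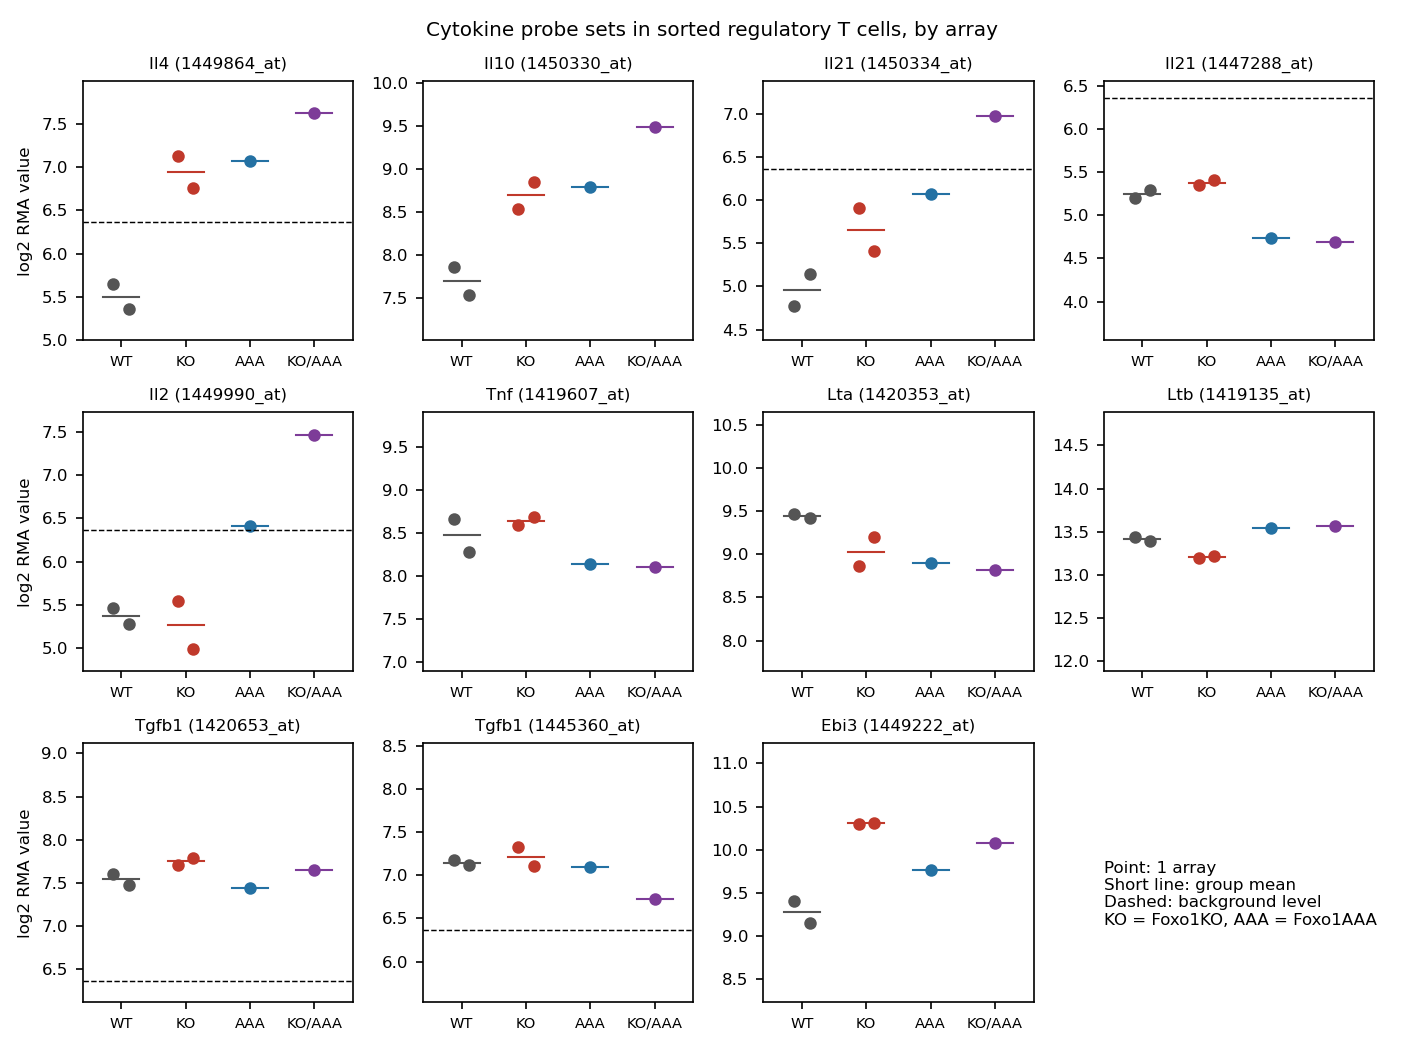
Log2 RMA value of each of the 11 member probe sets on each array (1 point per array, short line at the group mean; each panel spans the same number of log2 units; the dashed line is the background level of 6.36 where it falls in the panel). Il4 and Il10 were lower on both WT arrays than on the other 4, Il2 stood apart at 7.47 in Foxo1KO/Foxo1AAA, and Ltb moved by 0.36 in all.

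Adding Foxo1AAA to the knockout, which asks whether transcripts return towards WT, went with higher Il4, Il10, Il21 and Il2, away from their WT levels, while Tnf and 1 of 2 Tgfb1 probe sets fell. With the second Il21 probe set, 4 member probe sets were higher and 3 lower in Foxo1KO/Foxo1AAA than in Foxo1KO, against 30.7% of all probe sets called (14.4% higher and 16.3% lower; medians -0.10 for the members and -0.06 for all). Il2 rose by 2.20 (SE 0.21, adjusted p = 0.0002), at least 2.15-fold, and was called under all the alternatives that tested it. Il21 rose by 1.32 on its first probe set (SE 0.22, adjusted p = 0.0032), at least 1.53-fold, and fell by 0.69 on its second (adjusted p = 0.0044), where all groups lay near background.

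Il4 was higher by 0.69 in Foxo1KO/Foxo1AAA than in Foxo1KO (SE 0.18, adjusted p = 0.022), a call lost without Foxo1KO replicate 2 (0.50, adjusted p = 0.093). Il10 was higher by 0.80 (SE 0.18, adjusted p = 0.012), a call lost without Foxo1KO replicate 1 (0.64, adjusted p = 0.065). Tnf fell by 0.53 (SE 0.16, adjusted p = 0.040), a call lost without Foxo1KO replicate 1 (0.10) or 2 (0.14) and after centring the arrays on their medians (0.075). The Tgfb1 probe set 1445360_at fell by 0.49 (SE 0.14, adjusted p = 0.026), a call lost without Foxo1KO replicate 1 (0.10), while 1420653_at differed by -0.10 (adjusted p = 0.59). Ebi3 differed by -0.22 (95% interval -0.54 to 0.10, adjusted p = 0.26), Lta by -0.21 (adjusted p = 0.33) and Ltb by 0.36 (adjusted p = 0.051, called under 5 of 10 alternatives). The 7 called member probe sets, which include both of Il21, were fewer without Foxo1KO replicate 1. The part of the macrophage, dendritic and B cell markers in these differences was not tested.

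Against WT, the Foxo1AAA array gave 5 member probe sets higher (Il4, Il10, Il21, Il2 and Ebi3) and 2 lower (the second of Il21, and Lta), against 23.7% of all probe sets (10.4% higher, 13.3% lower; medians 0.12 for the members and -0.06 for all). After centring the arrays on their medians 65.9% rather than 44.0% of all calls were higher, and the members called were 5 higher and 0 lower. Il4 was higher by 1.57 (adjusted p = 0.00096, at least 1.64-fold), Il10 by 1.08 (2.12-fold, adjusted p = 0.0047), Il21 by 1.11 (adjusted p = 0.0094, both groups near background, so no fold is given) and Il2 by 1.04 (adjusted p = 0.011), the last at least 1.04-fold. So with Foxo1 present, too, the array carrying Foxo1AAA was above WT for Il4 and Il10, and by an amount near that of Foxo1KO: the Foxo1AAA value lay between the 2 Foxo1KO arrays for both genes. These 4 were called under all alternatives that tested them, and the other 3 were not. Ebi3 (0.49, adjusted p = 0.038) was lost without either Foxo1KO replicate (0.066) and without WT replicate 2 (0.36, adjusted p = 0.15). Lta (-0.54, adjusted p = 0.037) was lost without WT replicate 1 (0.089) or 2 (0.071) and after centring (0.088), and the second Il21 probe set (-0.50, adjusted p = 0.021) without WT replicate 2 (0.078) and after centring (0.054). Tnf differed by -0.33 (adjusted p = 0.17), Ltb by 0.12 and the Tgfb1 probe sets by -0.10 and -0.06, none of them called. The part of the macrophage and other markers was not tested here either.

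The Foxo1KO/Foxo1AAA array against WT had the same 5 higher and 2 lower, against 24.5% of all probe sets (11.7% higher, 12.8% lower; medians 0.15 and -0.07). Il4 was higher by 2.13 (adjusted p = 0.00014, at least 2.40-fold), Il2 by 2.09 (adjusted p = 0.00033, at least 2.15-fold), Il21 by 2.01 (adjusted p = 0.00051, at least 1.53-fold) and Il10 by 1.79 (adjusted p = 0.00033, 3.46-fold). Ebi3 was higher by 0.81 (adjusted p = 0.0051). Lta fell by 0.63 (adjusted p = 0.021), a call lost without WT replicate 1 (0.051), and the second Il21 probe set differed by -0.55 (adjusted p = 0.014), lost without WT replicate 2 (0.055). Tnf (-0.36, adjusted p = 0.14) and the Tgfb1 probe set 1445360_at (-0.42, adjusted p = 0.054) were not called.

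**Figure D3:**
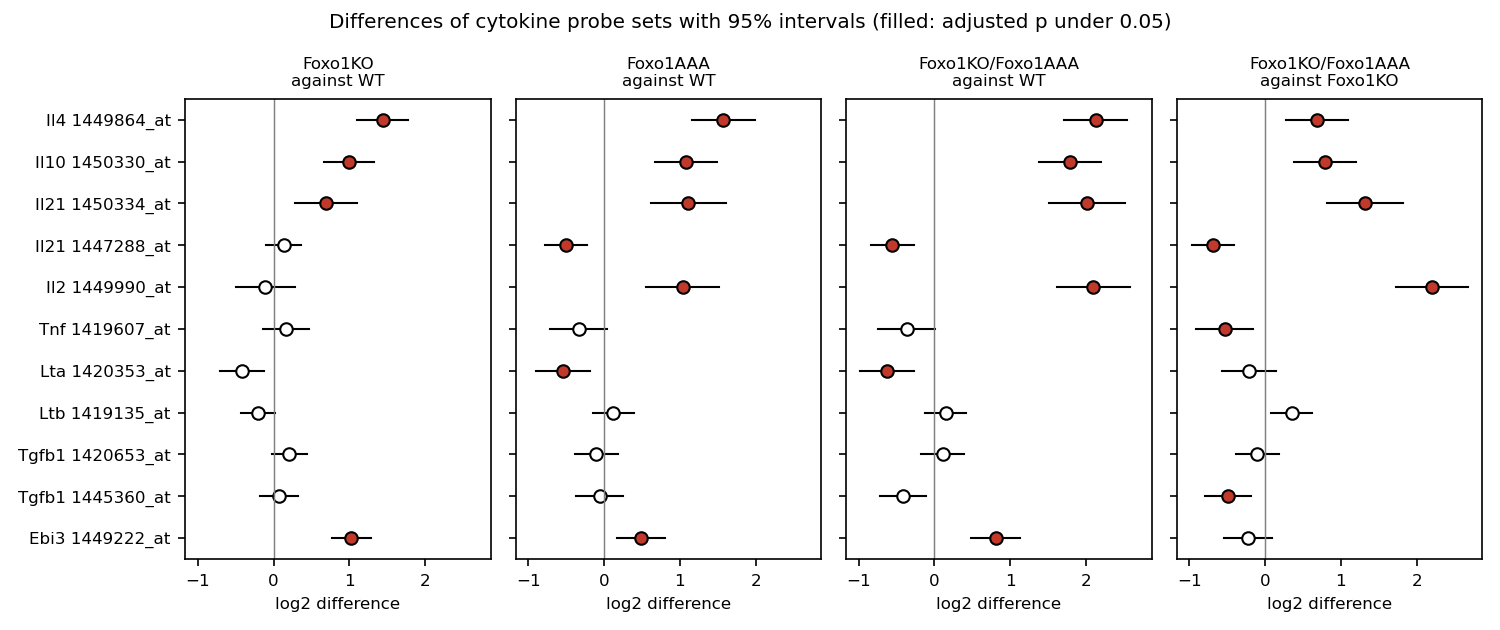
Log2 difference of each member probe set (horizontal axis) in 4 comparisons, with 95% intervals from the limma fit over 6 arrays; filled points had an adjusted p under 0.05. Il4, Il10 and the first Il21 probe set lie to the right in all 4 panels, Il2 is at -0.11 in Foxo1KO against WT and at 2.20 in Foxo1KO/Foxo1AAA against Foxo1KO, and the last 3 panels each rest on a lone array.

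Whether the loss of Foxo1 acted differently with and without Foxo1AAA was tested directly. Between Foxo1KO/Foxo1AAA and Foxo1AAA, 1 array each, limma called 0 of 11 member probe sets, against 0.0600% of all. At an unadjusted p under 0.05 there were 5 of 11, against 13.4% of all: Il2 (1.06), Il21 (0.90), Il10 (0.70) and Il4 (0.55) were higher and 1 Tgfb1 probe set (-0.36) was lower in the knockout background. The interaction contrast also called 0 members in limma, against 3.04% of all probe sets, with 3 of 11 at an unadjusted p under 0.05, against 17.8% of all: Il2 (1.16, adjusted p = 0.080), Il4 (-0.89, adjusted p = 0.11) and Ebi3 (-0.71, adjusted p = 0.11). Without Foxo1KO replicate 1, Il2 was called there (1.44, adjusted p = 0.048). An uncalled interaction between lone arrays does not show that the 2 differences were alike.

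Among 18 measured genes listed as receptors of these cytokines or their relatives, 2 rose and 3 fell in Foxo1KO. This compares with 14.2% of 18193 genes called with the brightest probe set of each (7.38% higher, 6.78% lower). With 1 array left out the counts were 1 to 2 and 2 to 3. The median difference was 0.02 over the receptors and 0.03 over all genes. Il12rb1, the shared chain of the IL-12 and IL-23 receptors, is on the list although neither of these cytokines is a member. It rose by 1.88 (adjusted p = 2.4e-05). Il6st (gp130), the signalling chain of the IL-27 receptor and a chain of the IL-35 receptor, fell by 1.47 (adjusted p = 9.9e-05). Tgfbr2, the ligand-binding TGF-beta receptor, fell by 0.66 (adjusted p = 0.0026), and the co-receptor Tgfbr3 fell by 0.49 (adjusted p = 0.016), a call lost without WT replicate 1 (0.096) or Foxo1KO replicate 2 (0.11). Il21r rose by 0.35 (adjusted p = 0.047), a call lost with any 1 array left out.

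The other receptors of the risen cytokines were not called in Foxo1KO: Il4ra (-0.12), Il10ra (-0.33, adjusted p = 0.062), Il10rb (-0.16), Il27ra (0.01) and Il12rb2 (0.40, adjusted p = 0.11). Il10ra was called under 2 of 11 alternatives (lowest limma adjusted p = 0.035), and Il12rb2 without Foxo1KO replicate 1 (difference 0.63). Il12rb2 lay near background in all groups (means 4.80 to 5.78). The IL-2 receptor chains Il2ra (-0.06) and Il2rb (0.14) were not called in Foxo1KO either. In Foxo1KO/Foxo1AAA against Foxo1KO, 4 of the listed genes were higher and 3 lower, against 31.5% of genes called (13.9% higher, 17.6% lower). Il6st was higher by 1.79 (adjusted p = 9.7e-05) and Tgfbr2 by 0.70 (adjusted p = 0.0040), and Il12rb1 fell by 1.59 (adjusted p = 0.00012). For these 3 the Foxo1KO/Foxo1AAA array lay nearer to WT than to Foxo1KO, at 11.01 against a WT mean of 10.70 for Il6st, 12.10 against 12.06 for Tgfbr2 and 8.36 against 8.07 for Il12rb1. Il10ra was higher by 0.99 (adjusted p = 0.00077) on that array.

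Other T cell cytokines gave a reference for the members. Of 17 measured, 8 lay above background in some group, 6 rose in Foxo1KO and 1 fell (4 to 6 and 0 to 1 with 1 array left out; median 0.23), against 14.2% of all genes called (7.38% higher, 6.78% lower). Ifng, the Th1 cytokine, measured 7.06 and 6.78 in WT, 9.12 and 9.36 in Foxo1KO, 7.16 in Foxo1AAA and 8.34 in Foxo1KO/Foxo1AAA, a rise of 2.32 in Foxo1KO (adjusted p = 2e-05). It was thus lower with Foxo1AAA than in the plain knockout (-0.90, adjusted p = 0.0044), where Il4, Il10, Il21 and Il2 were higher. Fas ligand (Fasl) rose by 1.52 (adjusted p = 0.00021), Tgfb3 by 1.42 (adjusted p = 0.00032) and Lif by 0.81 (adjusted p = 0.0055, lost without Foxo1KO replicate 2, 0.053), and all 3 were lower in Foxo1KO/Foxo1AAA than in Foxo1KO (-0.76, -2.10 and -1.45). Of these 3, Tgfb3 lay above background only in Foxo1KO (mean 7.37). It lay near background in WT (5.95), Foxo1AAA (4.74) and Foxo1KO/Foxo1AAA (5.27). Tnfsf8 (CD30 ligand) fell by 0.76 (limma adjusted p = 0.014) and was higher by 2.69 with Foxo1AAA in the knockout. Tnfsf8 is named as the only 1 that fell. In that comparison 1 of the 17 was higher and 7 lower, against 31.5% of all genes called (13.9% higher, 17.6% lower).

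Of 28 measured transcription factors known at cytokine genes, 9 rose and 4 fell in Foxo1KO (5 to 8 and 2 with 1 array left out; median 0.15), against the same 14.2% of all genes. Tbx21 (T-bet, the Th1 factor) rose by 2.23 (adjusted p = 0.00016), Prdm1 (Blimp-1, which supports Il10 and restrains Il2) by 1.27 (adjusted p = 0.00015) and Runx3 by 1.19 (adjusted p = 0.00032). Bach2, a repressor of effector genes, fell by 1.42 (adjusted p = 5.4e-05). Tbx21 (-1.17) and Runx3 (-0.77) were lower and Bach2 (1.08) higher in Foxo1KO/Foxo1AAA than in Foxo1KO, while Prdm1 (0.32, adjusted p = 0.11) was not called. The AP-1 subunit Jun was higher by 2.27 (adjusted p = 1e-04) and Irf4 by 1.85 (adjusted p = 6.8e-05) in that comparison; these 2 were chosen after their values were seen.

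Steps that free TGF-beta from its latent form were also measured. Of 7 genes, 0 rose and 2 fell in Foxo1KO (1 to 2 with 1 array left out; median -0.05), against 6.78% of all genes lower. Nrp1, which binds latent TGF-beta, fell by 3.21 (adjusted p = 2.1e-06). Itgb8, the integrin chain that activates it, fell by 1.02 (adjusted p = 0.0037), a call lost without Foxo1KO replicate 1 (0.062). Both were higher in Foxo1KO/Foxo1AAA than in Foxo1KO, by 3.11 and 0.86 (adjusted p = 4.6e-06 and 0.014). In that comparison 3 of the 7 were higher and 1 lower, against 13.9% and 17.6% of all genes. The lower gene was Furin (-0.73, adjusted p = 0.0064). Lrrc32, also on this list, was not measured. The Tgfb1 transcript itself showed no call in Foxo1KO on either probe set. Of 18 measured genomic neighbours of the members, 5 rose and 2 fell in Foxo1KO (2 to 3 and 1 with 1 array left out; median 0.16), against 14.2% of all genes. Nudt6, near Il2 and Il21, fell by 0.86 (adjusted p = 0.00057) and Irf1, near Il4, rose by 0.73 (adjusted p = 0.0015). Aif1, near Lta and Tnf and known as a macrophage gene, rose by 0.67 (adjusted p = 0.047), a call lost without WT replicate 1 (0.082), WT replicate 2 (0.12) or Foxo1KO replicate 1 (0.17). Mapkapk2, near Il10, rose by 0.56 (adjusted p = 0.014, lost without WT replicate 2, 0.060, or Foxo1KO replicate 2, 0.097).

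**Figure D4:**
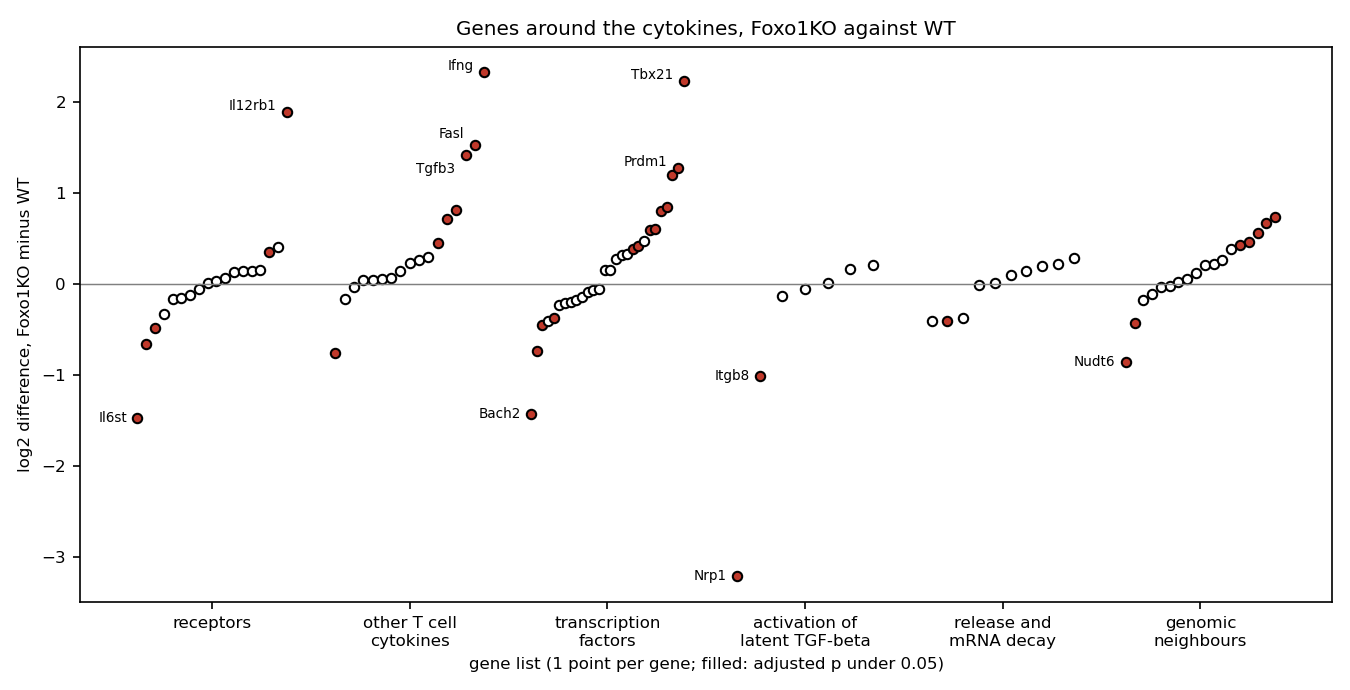
Log2 difference between Foxo1KO and WT (vertical axis) of each measured gene in 6 lists around the member cytokines, ordered within each list; filled points had an adjusted p under 0.05 in the limma fit. Il12rb1 (1.88), Ifng (2.32) and Tbx21 (2.23) lie high and Il6st (-1.47), Bach2 (-1.42) and Nrp1 (-3.21) low, while the release and mRNA decay list stayed within a narrow band with 1 of 10 called.

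Genes whose profile over the 6 arrays was nearest to a member were found by the root mean square distance between mean-centred log2 profiles, among 11042 genes above background. This describes 6 arrays that share the group differences, and it is no test. Nearest to Il4 were D17H6S56E-5 (0.11) and Parpbp (0.12). Nearest to Il10 were Exo1 and Kif20b (both 0.15), a DNA repair nuclease and a mitotic kinesin. Nearest to Il21 were Gzmk (0.09), a granzyme that measured 6.32 and 6.52 in WT, 7.47 and 6.88 in Foxo1KO, 7.74 in Foxo1AAA and 8.50 in Foxo1KO/Foxo1AAA, and Wfdc17 (0.20). Nearest to Il2 were Pcsk1 and Fpr2 (both 0.20), the latter a formyl peptide receptor of myeloid cells. Nearest to Ebi3 were Errfi1 (0.05) and Pimreg (0.07). The other members varied by less than 1 log2 unit and were not searched.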

How the data were processed

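Per the submitters' processing notes, values came from RMA, with R 2.15 and limma 3.12.1 also named. RMA corrects background, quantile-normalizes arrays and summarizes probes, which would hide a change shared by most transcripts. The deposited log2 values understate differences of very dim or very bright probe sets. Of 45101 probe sets 64 controls were left out. Of the 45037 tested, 34945 were listed with 1 gene, 932 with several and 9160 with none. limma 3.58.1 in R 4.3.3 fitted 1 coefficient per group (lmFit, eBayes; residual degrees of freedom 2, prior 6.62 with SD 0.11), and was tested on simulated data. An exact permutation of 2 arrays against 2 cannot go below p = 0.333, so none is given. No label calls the replicates separate mice, so p-values cover only the spread between these arrays, and the number of arrays limits the precision. All 9 members were named, and from each pathway list up to 4 called genes with the largest change in Foxo1KO and the receptors of called members, and from each marker list genes with the highest mean and defining genes near background. The markers named as called in Foxo1KO were chosen after their values were seen. The members and lists were chosen with earlier results of these data known. Alternatives changed the variance prior, the filter on dim probe sets, the probe sets per gene, the centring, a replicate block, the arrays included and the background level.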

Additional observations from a re-analysis of the deposited data

How the results depend on the processing

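Of 641 recomputed member differences, 609 kept their direction and side of the threshold, 13 gained a call, 19 lost one and 0 changed sign while called; 10 changed sign and were called in neither setting. Centring each array on its median raised the differences of Foxo1AAA against WT by 0.11 on the log2 scale, and of Foxo1KO/Foxo1AAA by 0.08 against both Foxo1KO and WT. It moved the share of calls that were higher from 44.0% to 65.9%, from 46.9% to 60.2% and from 47.7% to 62.6% in these 3, and from 70.4% to 58.7% in Foxo1KO/Foxo1AAA against Foxo1AAA. With 1 probe set per gene and without the dimmest 25% of genes, limma called 2979 (Foxo1KO against WT), 5429 (Foxo1KO/Foxo1AAA against Foxo1KO), 3756 (Foxo1AAA against WT), 4192 (Foxo1KO/Foxo1AAA against WT), 10 (Foxo1KO/Foxo1AAA against Foxo1AAA) and 811 (interaction), where 13645 rather than 45037 were tested. Without the dimmest 50% there were 8310 calls in Foxo1KO/Foxo1AAA against Foxo1KO, 6096 (4 members) in Foxo1AAA against WT and 2 in Foxo1KO/Foxo1AAA against Foxo1AAA. The last had 27 calls as reported, 9 without the dimmest 25%, 175 with an intensity trend and 150 after centring; the cause was not tested. Leaving out 1 array gave, in the order above, 3479 to 4507, 8748 to 13617, 6903 to 9326, 7192 to 9600, 8 to 130 and 240 to 1281 calls, and 4 to 7 members called in Foxo1KO/Foxo1AAA against Foxo1KO, 4 to 6 in Foxo1AAA against WT and 0 to 1 in the interaction. Counts of members called in this section are of member probe sets. The lone arrays could not be left out. With the replicate block Foxo1KO against WT had 4854 calls and 3 members; no label gives the numbers a meaning, and their deviations correlated at -0.09 over all probe sets, although Y-linked genes were low in both replicate 1 and high in both replicate 2 arrays. The background level was 6.21 at the 90th percentile, 7.54 at the 99th (4 of 11 member probe sets near background in all groups) and 4.97 as the 25th percentile of all probe sets.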

Other observations

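Of 5 plasma cell markers, 2 rose (Jchain, Xbp1) and 1 fell (Irf4) in Foxo1KO, against 7.38% of all genes higher and 6.78% lower. Jchain, the joining chain of secreted antibodies, measured 5.35 and 5.62 in WT, 9.24 and 8.18 in Foxo1KO, 10.72 in Foxo1AAA and 10.40 in Foxo1KO/Foxo1AAA, and rose by 3.22 in Foxo1KO (limma, adjusted p = 0.00013). Xbp1 rose by 0.38 (limma, adjusted p = 0.040, lost with any 1 array left out) and Irf4 fell by 0.74 (limma, adjusted p = 0.0031). Sdc1 differed by 0.07 in Foxo1KO and was not called, and it fell by 0.54 in Foxo1AAA against WT (limma, adjusted p = 0.015). Tnfrsf17, a defining plasma cell receptor, lay near background in all groups. Their part in the cytokine differences was not tested.

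Of 10 genes for the release of TNF or the decay of cytokine mRNA, 0 rose and 1 fell in Foxo1KO, near the 6.78% of all genes that fell. Zfp36l1, an mRNA decay factor, fell by 0.41 (limma adjusted p = 0.037), a call lost without WT replicate 1 (0.23) and Foxo1KO replicate 1 (0.12) or 2 (0.17). In Foxo1KO/Foxo1AAA against Foxo1KO limma called 0 of the 10, against 31.5% of all genes.

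Of 3 measured NKT and gamma delta T cell markers, 0 were called by limma in Foxo1KO, against 14.2% of all genes. Zbtb16 lay near background in all groups.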
